A study of Mus musculus with 3 samples.

Results

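Cd4, Cd8a and Cd3e encode the CD4 coreceptor, the alpha chain of the CD8 coreceptor and the epsilon chain of the CD3 complex. They were followed in RNA of purified CD69hi thymocytes set against RNA of unseparated Zap70-/- thymocytes, on 3 spotted 2-colour arrays. The 3 genes were picked by name out of 6795 measured genes. Each has 1 probe with a single gene symbol in the platform annotation, so no values were averaged for them. Their Entrez gene identifiers are 12504 (Cd4), 12525 (Cd8a) and 12501 (Cd3e), and the RefSeq gene table places Cd4 and Cd8a on mouse chromosome 6 and Cd3e on chromosome 9.

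The CD69hi RNA came from wild-type C57BL/6 (B6) mice. CD69 is a surface protein that thymocytes raise after a signal through the T cell receptor (TCR), and the cells were purified for a high level of it. The RNA on the other side of each array came from whole thymocytes of mice without Zap70, the kinase that carries the TCR signal onwards. Those cells were not sorted, although the titles call them CD69lo, so genotype and purification differ together between the 2 RNAs. The labels used here give no age or sex and do not mention pooling. They also leave unsaid whether different mice supplied the 3 arrays. The p-values therefore speak of the spread among these arrays, which could be technical.

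CD4 and CD8 bind MHC class II and class I molecules and bring the Src kinase Lck to the TCR. The CD3 chains carry the phosphorylation motifs through which the TCR signals. Immature thymocytes make both coreceptors and are called double-positive, and positive selection turns them into CD4 or CD8 single-positive cells. Cells that are being selected commonly pass through a stage with lowered CD8 and retained CD4, whereas CD3 genes stay active throughout. The comparison sets transcripts of sorted wild-type thymocytes high in CD69 against those of unsorted thymocytes without Zap70, and does not isolate the TCR signal.

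Promoters of 2 of the 3 genes were held in the RefSeq table used (GRCm38.p6). They are shown because factors that act on coreceptor genes through Runx and E-box motifs were measured on the same arrays. Each run covers 250 bases before to 50 after the annotated start, read 5′ to 3′ on the gene's strand. Cd8a lies at chr6:71373177-71373476 on the + strand and Cd3e at chr9:45009562-45009861 on the - strand. Capitals mark matches, on either strand, to the Runx letters TGTGGT or TGCGGT and to the E-box letters CANNTG.
Cd8a: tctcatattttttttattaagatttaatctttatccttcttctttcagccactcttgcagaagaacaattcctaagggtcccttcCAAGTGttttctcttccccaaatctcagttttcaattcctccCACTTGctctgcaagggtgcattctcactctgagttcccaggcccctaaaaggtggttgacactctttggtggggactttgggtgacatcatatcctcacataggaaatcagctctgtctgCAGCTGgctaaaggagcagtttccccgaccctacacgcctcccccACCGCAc
Cd3e: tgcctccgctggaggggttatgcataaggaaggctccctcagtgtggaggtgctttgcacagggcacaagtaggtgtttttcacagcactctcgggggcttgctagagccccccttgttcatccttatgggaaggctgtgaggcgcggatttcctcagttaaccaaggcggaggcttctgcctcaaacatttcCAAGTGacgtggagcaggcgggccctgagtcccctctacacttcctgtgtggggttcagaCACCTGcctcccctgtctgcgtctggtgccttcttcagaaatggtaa
The Cd8a run holds 3 E-box matches, of which the third spans the start, and 1 Runx match on the opposite strand downstream of it. The Cd3e run holds 2 E-box matches and 0 Runx matches, and no matches of the 2 kinds overlap in either run. Of 32851 promoters of the same length in the table, 72.3% hold an E-box match and 22.4% a Runx match. These matches describe the letters and are no evidence that a factor binds there.

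The deposited values are 1 log ratio per probe and array, read here as log2 of Cy5 over Cy3. Arrays 1 and 2 had the CD69hi RNA in Cy3 and array 3 had it in Cy5, and the first 2 arrays were turned so that every ratio reads CD69hi over Zap70-/-. Before turning, array 3 correlated across 9596 probes at r = -0.25 with array 1 and at r = -0.40 with array 2, while arrays 1 and 2 correlated at r = 0.61. This direction is likely, though no label states it. Its basis is a pair of double-positive stage genes, the recombinase gene Rag1 and the terminal transferase gene Dntt, whose log2 ratios of -1.19 ± 0.36 and -1.05 ± 0.71 (SD, n = 3) lay below 0 in this reading. Rag1 passed the test (limma adjusted p = 0.035) and Dntt did not (adjusted p = 0.12). These p-values are the same in either direction and so do not bear on it. Rag1 lost its call when array 1 (adjusted p = 0.13) or array 2 (adjusted p = 0.18) was left out. Cd69 and Zap70 themselves were not analysed here, which leaves the sort and the deletion unchecked. With limma and a Benjamini-Hochberg threshold of 0.05, 618 of 8905 features passed, which is 6.94%. Of these, 368 (4.13% of all features) were higher and 250 (2.81%) lower in CD69hi RNA. The number passing was 201 without array 1 and 119 without array 2.

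Cd8a had the lowest ratios of the 3 genes, Cd4 came next and Cd3e lay closest to 0, and this order was the same on every array. Read in the opposite direction, their mean folds would be 2.19 for Cd8a, 1.23 for Cd4 and 1.16 for Cd3e, and Cd8a would be the highest. All 3 genes lay below 0 on all 3 arrays, as did 22.7% of all features. None of the 3 passed the test, against the 6.94% of all features that did. An unadjusted limma p of at most 0.05 was reached by 1 of the 3, Cd8a, and by 23.4% of all features. The ratios compare amounts of RNA in bulk, so fewer cells of a kind and less RNA per cell cannot be told apart.

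**Figure D1:**
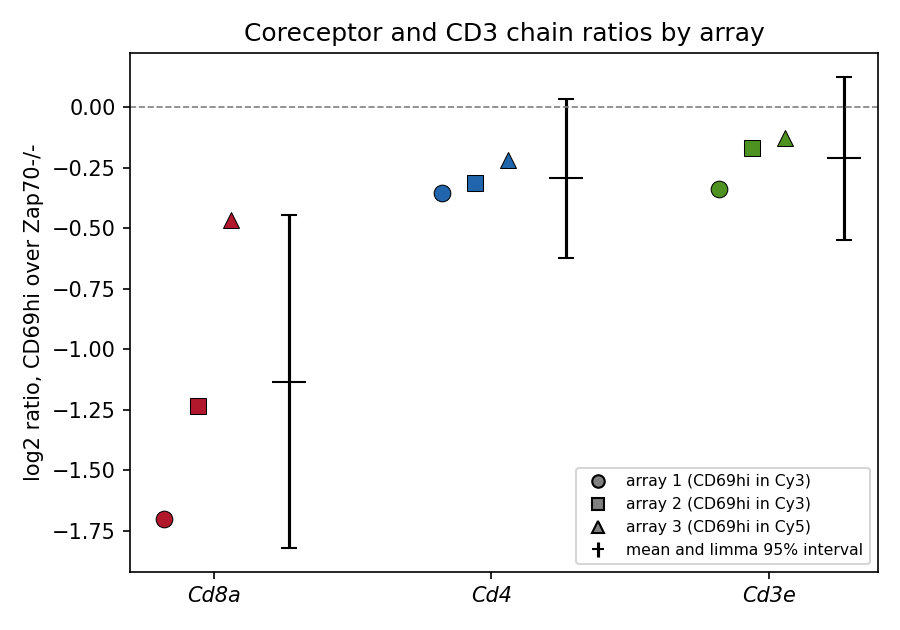
Log2 ratios of CD69hi over Zap70-/- RNA (vertical axis) for Cd8a, Cd4 and Cd3e, with a symbol for each array and, to the right, the mean with its limma 95% interval. The Cd8a values run from -1.70 to -0.47, all below those of Cd4 and Cd3e, which lie between -0.35 and -0.13.

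Cd8a had log2 ratios of -1.70 on array 1, -1.24 on array 2 and -0.47 on array 3. All 3 were below 0, and array 3, the 1 with the dyes the other way round, stood nearest to it. The mean was -1.13 ± 0.62 (SD, n = 3), a CD69hi over Zap70-/- fold of 0.456 with a 95% interval from 0.283 to 0.734 that is not adjusted for the other features. The limma adjusted p was 0.081, above the threshold of 0.05. When array 3 was left out the mean was -1.47 and passed (adjusted p = 0.043), but both arrays left then carry the CD69hi RNA in Cy3, so a dye bias and the ratio cannot be told apart there. With a dye term in the fit, the ratio was -0.97 and passed narrowly (adjusted p = 0.048). In that fit 12.1% of all features passed, and 7.77% did without array 3, against 6.94% without either change. The fit with a dye term put the dye coefficient of Cd8a, Cy5 over Cy3, at 0.50. For Cd4 and Cd3e the dye coefficients were 0.06 each. Array 3 alone has the dyes the other way round, so these coefficients cannot separate a dye effect from any other difference of that array. Whether the Cd8a ratio of -0.97 is free of a dye bias is therefore not known. Without array 1 the Cd8a ratio was -0.85 (adjusted p = 0.25), and without array 2 it was -1.08 (adjusted p = 0.28).

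Cd4 had log2 ratios of -0.35, -0.31 and -0.22 on arrays 1, 2 and 3. The 3 arrays lay close together and on the same side of 0. The mean of -0.29 ± 0.07 (SD, n = 3) is a fold of 0.815, with a 95% interval from 0.650 to 1.02. It did not pass (limma adjusted p = 0.25). The interval thus leaves room for a moderate decrease in CD69hi RNA and for no difference, while a fold under 0.650 lies outside it.

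Cd3e had log2 ratios of -0.34, -0.17 and -0.13 on the same arrays. Array 1 was lowest and the other two were nearly alike. The mean was -0.21 ± 0.11 (SD, n = 3), a fold of 0.864 with a 95% interval from 0.683 to 1.09 (limma adjusted p = 0.40). For this CD3 chain, too, the interval includes no difference.

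Set against every feature of the same array, Cd8a stood at percentile 1.40 on array 1, at 3.08 on array 2 and at 18.7 on array 3, where 100 is the highest ratio. Cd4 stood at percentiles 20.6, 21.8 and 32.7, and Cd3e at 21.5, 33.3 and 39.9. Each gene thus held its highest place on array 3, and there Cd8a came near the places Cd4 had on arrays 1 and 2. By its mean ratio, Cd8a stood at percentile 2.31, Cd4 at 19.8 and Cd3e at 26.6.

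**Figure D2:**
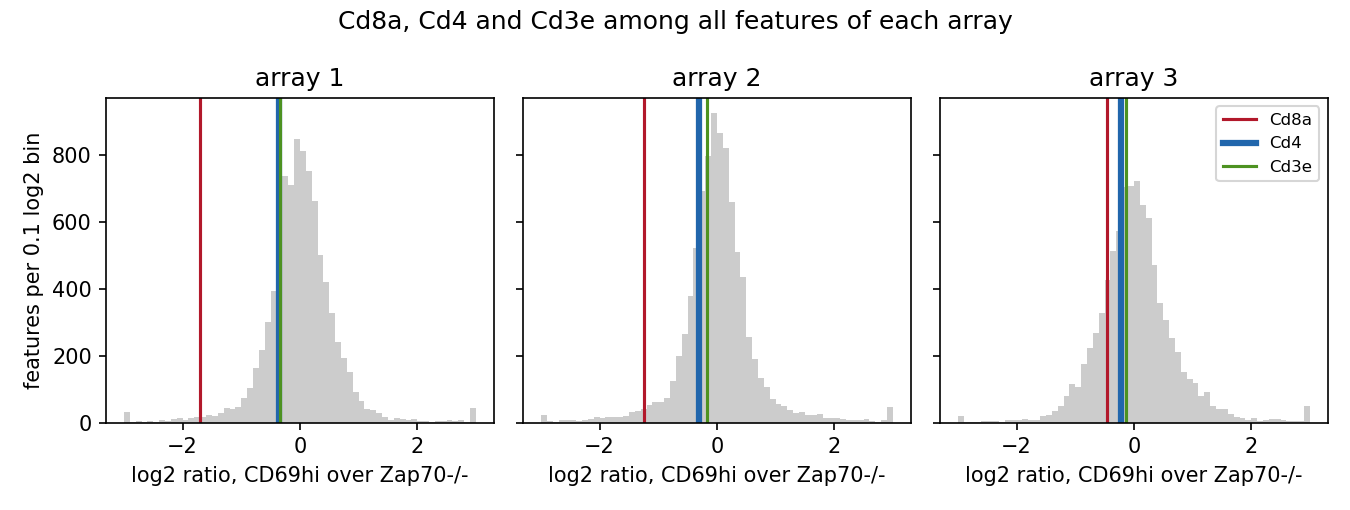
Number of features (vertical axis) per bin of 0.1 in the log2 ratio of CD69hi over Zap70-/- (horizontal axis) on each array, with values beyond 3 in either direction put in the outermost bins and lines at Cd8a, Cd4 and Cd3e. Cd8a lies in the lower tail on arrays 1 and 2, and on array 3 at percentile 18.7, while Cd4 and Cd3e lie on the lower flank of the main peak.

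The differences between the genes within an array were compared next, since both ratios of a pair share the array. Cd8a minus Cd4 was -1.35, -0.92 and -0.25 on arrays 1, 2 and 3, with a mean of -0.84 ± 0.55 (SD, n = 3). Cd8a minus Cd3e was -1.36, -1.07 and -0.34, with a mean of -0.92 ± 0.53. The Cd8a ratio was thus the lower of each pair on all 3 arrays, by a margin that was smallest on array 3. Cd4 minus Cd3e was -0.02, -0.15 and -0.09, with a mean of -0.08 ± 0.07, so these neighbours in the order lay within 0.15 of each other on every array. In an exact two-sided sign-flip permutation test each of the 3 pairs gave p = 0.25, also after adjustment over the 3 pairs. That is the smallest p that 3 arrays allow, so none of these differences could pass.

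The other CD3 chains measured were Cd3d and Cd3g, which encode the delta and gamma chains and pair with the epsilon chain. Cd3d had log2 ratios of -0.21, -0.10 and 0.30 on arrays 1, 2 and 3, and Cd3g had -0.08, -0.25 and 0.31. Both lay below 0 on the 2 arrays with CD69hi RNA in Cy3 and above 0 on the array with it in Cy5, whereas Cd3e stayed below 0 on each. Their means were 0.00 ± 0.27 and -0.01 ± 0.29 (SD, n = 3; limma adjusted p = 1.00 and 0.98). Of the 15 genes listed as TCR and CD3 chains, these 3 were measured and 0 passed, with 0 at an unadjusted limma p of at most 0.05. Over all features, 6.94% passed and 23.4% reached such an unadjusted p. The list median was -0.01, against 0.01 for all features. A TCR beta variable segment, Tcrb-V8.2, was looked at outside the list after its values were seen. Its 2 probes had mean log2 ratios of -0.02 and 0.07.

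Cd8b1, the gene of the CD8 beta chain, was not analysed here, so the 2 chains of the CD8 coreceptor could not be compared. Of 23 coreceptors and accessory surface receptors listed, 15 were measured, with 6 rising, 0 falling, 9 not past the threshold and a median of 0.52. Over all features, 4.13% rose and 2.81% fell. Cd8a and Cd4 were the 2 receptors on the list that lay below 0 on all 3 arrays, as did 22.7% of all features. On the list, 11 lay above 0 on all 3, as did 24.3% of all features. Among the risers, Cd5, an inhibitor of TCR signalling, was at 4.75 ± 0.43 on the log2 scale (SD, n = 3), and its relative Cd6 at 2.59 ± 0.12. The tetraspanin Cd53 was at 3.17 ± 0.23 and the inhibitory receptor Btla at 1.95 ± 0.41 (limma adjusted p from 0.0051 to 0.016 for the 4 genes). Thy1, a surface marker of T cells, had 0.06 ± 0.09 and did not pass (adjusted p = 0.81).

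**Figure D3:**
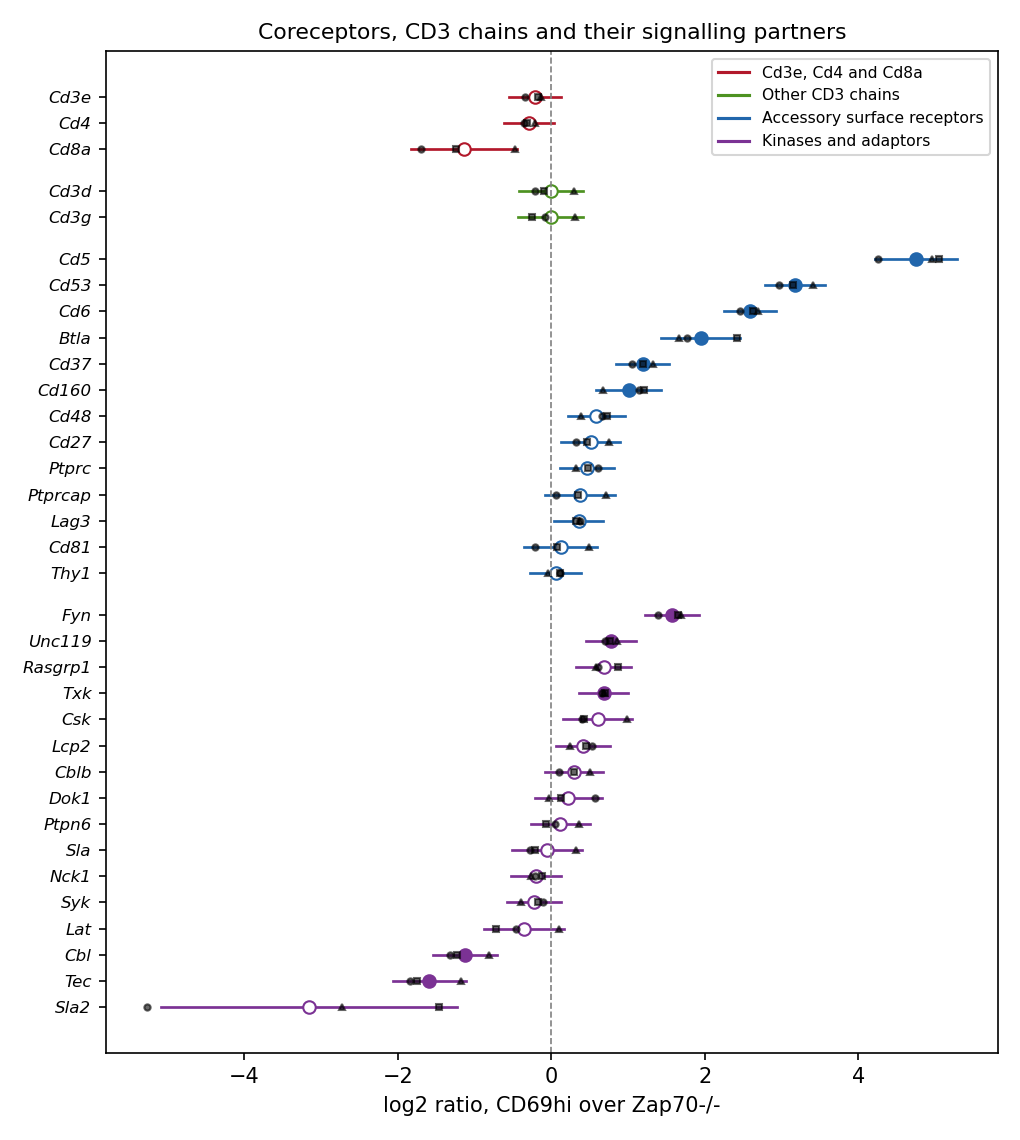
Log2 ratios of CD69hi over Zap70-/- (horizontal axis) for Cd3e, Cd4 and Cd8a, for the other CD3 chains and for listed receptors, kinases and adaptors. Circles are means, filled where the limma adjusted p was at most 0.05, with 95% intervals, and small symbols are arrays 1 (circle), 2 (square) and 3 (triangle). Cd5 lies highest, at 4.75, and Cd8a at -1.13 lies below every other surface receptor plotted.

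Of 33 kinases, adaptors and regulators listed as cytoplasmic partners of the coreceptors and of CD3, 16 were measured, with 3 rising, 2 falling, 11 not past the threshold and a median of 0.17. The shares over all features were 4.13% rising and 2.81% falling. The Src kinase gene Fyn rose (1.57 ± 0.16, SD, n = 3, limma adjusted p = 0.012), as did Unc119, an activator of Lck and Fyn (0.78 ± 0.08, adjusted p = 0.039). The kinase gene Tec (-1.59 ± 0.36, adjusted p = 0.020) and the ubiquitin ligase gene Cbl, which limits TCR signalling (-1.12 ± 0.27, adjusted p = 0.031), fell. Leaving out array 2 ended the calls of all 4 (adjusted p from 0.060 for Fyn to 0.30 for Unc119), and leaving out array 1 ended those of Tec, Cbl and Unc119 (adjusted p from 0.070 to 0.17). When array 1 was left out, the list had 1 riser, Fyn, and 0 fallers. When array 2 was left out, it had 0 risers and 1 faller, the adaptor gene Sla2, which did not pass over the 3 arrays (-3.15 ± 1.94, adjusted p = 0.082) and is named after its values were seen. Lck, the kinase bound by both coreceptors, was not analysed here.

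For action on Cd4 and Cd8 transcription, 30 symbols were listed, with Patz1 under both its names. Of these, 19 were measured, with 6 rising, 3 falling, 10 not past the threshold and a median of 0.08. Among all features, 4.13% rose and 2.81% fell. Zbtb7b, the CD4-lineage factor that opposes the CD8 programme, had log2 ratios of 2.52, 3.32 and 3.67 on arrays 1, 2 and 3. Its mean was 3.17 ± 0.59 (SD, n = 3, limma adjusted p = 0.010). Zbtb7b was highest on array 3, where Cd8a lay nearest to 0, and lowest on array 1, where Cd8a was lowest. A link between the Zbtb7b and Cd8a ratios was not tested. Tox, needed for the CD4 lineage, had 2.65 ± 0.16 (adjusted p = 0.0051). The E protein inhibitor Id2 was at 2.81 ± 0.42 (adjusted p = 0.0090), and Gata3, another CD4-lineage factor, was at 1.61 ± 0.10 (adjusted p = 0.010). Gata3 lost its call when array 2 was left out (adjusted p = 0.052).

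The 3 factors that fell are named after their values were seen. Myb, which acts in double-positive cells, had -0.99 ± 0.07 (SD, n = 3, limma adjusted p = 0.024). Patz1, also called MAZR and a repressor of Cd8 genes, had -0.84 ± 0.18 (adjusted p = 0.041), and Runx1, which binds the Cd4 silencer, had -0.78 ± 0.09 (adjusted p = 0.039). Leaving out array 1 ended all 3 calls (adjusted p from 0.12 to 0.21), and so did leaving out array 2 (adjusted p from 0.18 to 0.33). Runx1 also missed the threshold without array 3 (adjusted p = 0.051), and Patz1 missed it with scaling between arrays (adjusted p = 0.055). The list had 5 risers and 0 fallers when array 1 was left out, and 3 risers and 0 fallers when array 2 was. Runx3, the CD8-lineage factor, had 0.52 ± 0.33 and did not pass (adjusted p = 0.17).

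**Figure D4:**
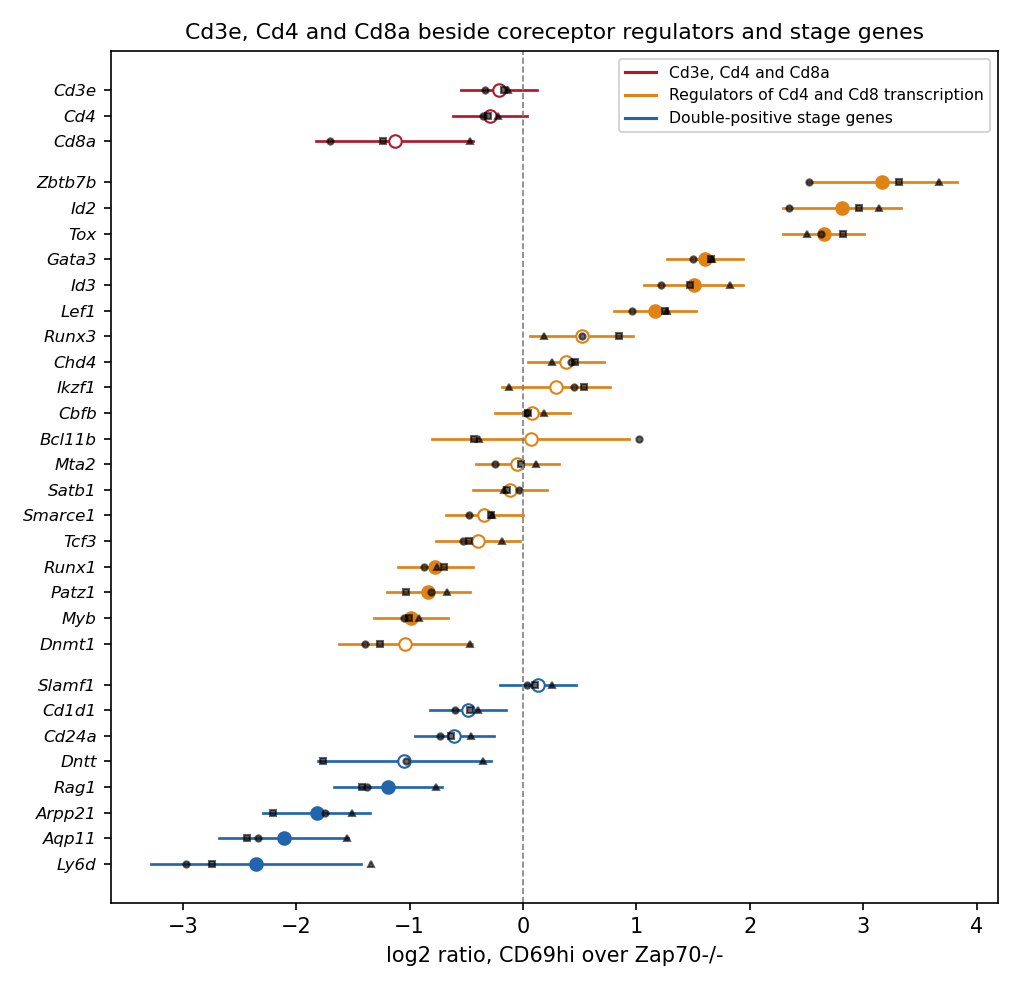
Log2 ratios of CD69hi over Zap70-/- (horizontal axis) for Cd3e, Cd4 and Cd8a, for regulators of Cd4 and Cd8 transcription and for genes of the double-positive stage. Circles are means, filled where the limma adjusted p was at most 0.05, with 95% intervals, and small symbols are arrays 1 (circle), 2 (square) and 3 (triangle). Zbtb7b lies highest, at 3.17, and Ly6d lowest, at -2.36, with Cd8a at -1.13 close to Rag1 at -1.19.

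Double-positive cells make both coreceptors, so the genes of that stage were set beside them. Of 15 symbols listed, with Arpp21 under both its names, 8 were measured. These had 0 rising, 4 falling, 4 not past the threshold and a median of -1.12, where 4.13% of all features rose and 2.81% fell. The list includes both genes on which the direction rests and so lends it no independent support. Ly6d had the lowest ratio (-2.36 ± 0.88, SD, n = 3, limma adjusted p = 0.033), followed by the aquaporin Aqp11 (-2.11 ± 0.48, adjusted p = 0.017) and Arpp21 (-1.82 ± 0.35, adjusted p = 0.015). Cd8a at -1.13 lay near the median of these genes and Cd4 at -0.29 above 7 of the 8. The Ly6d and Rag1 calls ended when array 1 or array 2 was left out (adjusted p from 0.073 to 0.18), which left 2 falling genes on the list. Of 22 genes listed for maturation after selection, 16 were measured, with 11 rising, 2 falling, 3 not past the threshold and a median of 2.20. The lists were chosen with earlier results of these data known, so such counts are no independent evidence about a stage. Ms4a4b (3.47 ± 0.29), the chemokine receptor Ccr7 (3.25 ± 0.44) and Slfn1 (2.78 ± 0.33) were among the risers. The 2 that fell, named after their values were seen, were Ifngr1 (-1.12 ± 0.41) and Ly6e (-1.13 ± 0.44). Both calls ended when array 1 (adjusted p = 0.17 for either gene) or array 2 (0.23 and 0.24) was left out. Scaling between arrays ended both as well (adjusted p = 0.060 and 0.063).

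Dendritic cells and macrophages can also express Cd4 or Cd8a, so markers of other cells are given beside these ratios. Of 19 measured macrophage and dendritic cell markers (32 listed), 11 rose and 0 fell, and the 19 had a median of 1.22 and a range from -0.11 to 2.83. For this and the other marker lists, the shares over all features were 4.13% rising and 2.81% falling. Of 9 granulocyte markers 0 rose and 1, S100a8, fell, with a median of -0.86, and 0 fell when array 1 or array 2 was left out and 4 when array 3 was. Among 9 NK and innate-like markers Tyrobp, Klrk1 and Il2rb rose and Gzma fell. Tyrobp is also on the macrophage and dendritic cell list and is counted among its 11 risers. The NK list had 1 riser when array 1 was left out and 0 when array 2 was, and 0 fallers in both cases (Gzma adjusted p = 0.11 and 0.087). Scaling between arrays also ended the calls of S100a8 and Gzma (adjusted p = 0.066 and 0.052). S100a8, Tyrobp, Klrk1, Il2rb and Gzma are named after their values were seen. Of the 6 B cell, 5 erythroid and 6 stromal and epithelial markers, 0 passed by limma, and 2, 2 and 1 of them had an unadjusted p under the threshold. Such a p was reached by 23.4% of all features. Of 6 thymocyte and T cell markers measured, 1 rose, Cd5, and the 6 had a median of 0.03. Ratios hold no levels, so whether a marker was near 0 in either RNA is not known here, and the part of other cells in the Cd4, Cd8a and Cd3e ratios was not tested.

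Genes next to Cd4, Cd8a and Cd3e on their chromosomes were compared by taking the 3 nearest measured genes on each side in the RefSeq table. Lag3, a relative of Cd4 that also binds MHC class II and is the next gene to it, had log2 ratios of 0.37, 0.32 and 0.38 on arrays 1, 2 and 3. These lay above 0 on every array on which Cd4 lay below it, but the mean of 0.36 ± 0.03 (SD, n = 3) did not pass (limma adjusted p = 0.18). The other 5 genes around Cd4 were P3h3, Cops7a, Usp5, Pianp and the cell division gene Cdca3, which was lowest at -2.22 ± 1.07 (adjusted p = 0.052). By limma 0 of the 6 passed, and 2, Lag3 and Cdca3, had an unadjusted p of at most 0.05, as did 23.4% of all features. Around Cd8a, Krcc1, Smyd1, Fabp1, Chmp3, Mrpl35 and Immt had means from -0.52 to -0.14. By limma 0 of them passed. An unadjusted p of at most 0.05, reached by 23.4% of all features, was found for Mrpl35 and Immt, the 2 with the lowest means. All 6 thus lay nearer to 0 than Cd8a by their means. Cd3e is flanked by Cd3d and Cd3g on one side, followed by Atp5l (-0.43 ± 0.49), which did not pass. On the other side lay Mpzl2 (-0.28 ± 0.10, not passed), the protease gene Tmprss4, which fell (-1.83 ± 0.82, adjusted p = 0.047), and the Na,K-ATPase regulator gene Fxyd2, which rose (2.29 ± 0.81, adjusted p = 0.031). Leaving out array 1 or array 2 ended the Tmprss4 call (adjusted p = 0.14 and 0.13), as did scaling between arrays (adjusted p = 0.063). Leaving out array 2 or array 3 ended that of Fxyd2 (adjusted p = 0.067 and 0.074).

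The genes with the most similar ratios over the 3 arrays were found by Euclidean distance among the other 6794 genes. Nearest to Cd8a was Cdc45 (distance 0.20), with log2 ratios of -1.63, -1.31 and -0.64 on arrays 1, 2 and 3, followed by H1f2 (0.30) and Map1b (0.31). Cdc45 was the 1 gene within a distance of 0.3 of Cd8a, and H1f2 and Map1b lay just outside it. Genes are sparse at so low a ratio, so this count largely restates the place of Cd8a in the tail. Nearest to Cd4 were Smap2 (distance 0.02), Rpusd1 (0.02) and Abcg2 (0.03), and 605 genes lay within 0.3. Nearest to Cd3e were Abcf1 (0.02), Fam98a (0.03) and Epn1 (0.04), with 693 genes within 0.3. The profiles of Cd4 and Cd3e were thus common ones on these arrays. With 3 arrays, such likeness describes the values and no more.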

How the data were processed

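RNA of mouse thymocytes was hybridised to 3 spotted 2-colour arrays that share a print, per the labels, with 2 arrays in one dye orientation and 1 in the other. The authors deposited a log ratio for each probe and array, taken here as log2, although no source used here gives the base. With natural logarithms the folds would lie further from 1. The authors' arrays were centred near 0 (medians -0.004, -0.005 and -0.002). No source used here states how background was corrected or ratios were normalized, and without intensities dim spots could not be filtered. The number of arrays, 3, limits the precision.

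Of 9596 probes, 7486 had 1 gene symbol, 483 had several and 1627 had none in the platform annotation table, and 7395 were matched to the RefSeq gene table by Entrez identifier. Probes were averaged per symbol, giving 8905 features, of which 6795 are genes. Arrays 1 and 2 were multiplied by -1. Each feature was fitted with limma 3.58.1 in R 4.3.3 (lmFit and eBayes, 1 coefficient, 2 residual degrees of freedom plus 2.75 prior ones), with two-sided p-values adjusted by Benjamini-Hochberg over 8905 features. A ± gives the SD. The fit was tested on simulated data, where it called 26.8% of features changed by -1 in log2 ratio and 0% of those changed by -0.3. Changes as small as the mean ratios of Cd4 and Cd3e were thus not called there. The simulation changed a smaller share of features than passed on the arrays. It also drew spreads at random from all features, not those of Cd4 or Cd3e. The shares it gave describe that setting and may be too low for these arrays.

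Genes were named by rule: Cd4, Cd8a and Cd3e, the measured TCR and CD3 chains, up to 4 called genes with the largest absolute ratios per list, 3 neighbours on each side, 3 genes of nearest profile, and Rag1 and Dntt for the direction. Thy1, Runx3 and the genes said to be named after their values were seen stand outside it. The genes and lists were chosen with earlier results of these data known. A cDNA probe may cross-hybridise with related transcripts. Alternatives were leaving out each array, scaling, centring, a dye term, robust shrinkage, other handling of probes and no dye turning.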

Additional observations from a re-analysis of the deposited data

How the results depend on the processing

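The log2 ratios of Cd4, Cd8a and Cd3e stayed below 0 under the 10 alternatives that keep the dye turning. Cd8a ran from -1.47 to -0.85 (adjusted p from 0.043 to 0.28), Cd4 from -0.33 to -0.26 (adjusted p from 0.11 to 0.78) and Cd3e from -0.25 to -0.15 (adjusted p from 0.19 to 0.81), all by limma. The other alternative ignores the swap and gives array 3 the sign change of arrays 1 and 2, which puts array 3 above 0 for all 3 genes. The means were then -0.82 for Cd8a, -0.15 for Cd4 and -0.13 for Cd3e, or 0.82, 0.15 and 0.13 with all arrays as deposited, so their sign follows from the chosen reading, and none passed (adjusted p from 0.74 to 0.83). Cd8a passed under 2 of the 10, without array 3 (-1.47) and with a dye term (-0.97), and Cd4 and Cd3e passed under none. The ends of the 3 ratio ranges came from leaving out 1 array. Cd8a minus Cd4 ran from -1.13 to -0.59 and Cd8a minus Cd3e from -1.21 to -0.70 over the 10 alternatives, and Cd4 minus Cd3e from -0.12 to -0.05. The count of features that passed depended on the arrays, with 119 to 692 when 1 array was left out. It was 1076 with a dye term and 0 without dye turning (by limma, with 342 at an unadjusted p under the threshold), against 618 as reported. The cause of these shifts was not tested, although fits on 2 arrays, or with a dye term, leave 1 residual degree of freedom. No paired analysis was possible because there is 1 group of arrays, so no other group shares its replicate numbers, and the ratio within an array already sets the 2 RNAs side by side. Dim spots and background correction could not be tried, since no intensities were used.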
